A study of Homo sapiens with 18 samples.

Results

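The genes of fatty acid entry and activation were followed in OVCAR5 cells, an established human line labelled as high grade ovarian serous adenocarcinoma. The set was chosen by name and holds 10 genes of the 60483 listed: CD36, SLC27A1, SLC27A2, SLC27A3, SLC27A4, ACSL1, ACSL3, ACSL4, ACSL5 and FABP5. Wild-type cells received 1 of 6 media for 24 h, all with fatty-acid-free BSA. They held no fatty acid, stearate or oleate, each with either DMSO or CAY10566, and are named DMSO, CAY10566 and, with a fatty acid, for example oleate+CAY10566. Fatty acids were used at 50 µM and CAY10566, an inhibitor of the stearoyl-CoA desaturase SCD1, at 1 µM. Each condition had 3 replicates, which gave 18 samples. The comparisons address whether the saturated stearate and the monounsaturated oleate are met with different expression of the machinery that takes them up, and whether blocking the conversion of stearate to oleate alters it.

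Long-chain fatty acids cross the plasma membrane with the help of CD36, a scavenger receptor, and of the SLC27A proteins (fatty acid transport proteins), most of which also carry acyl-CoA synthetase activity. Inside the cell FABP5 carries them through the cytosol, and the long-chain acyl-CoA synthetases (ACSL) couple them to coenzyme A, which traps them and commits them to lipids or oxidation. ACSL3 sits on the endoplasmic reticulum and nascent lipid droplets, ACSL4 prefers arachidonate and other polyunsaturated chains, and ACSL5 is found on mitochondria and the endoplasmic reticulum. SCD1 acts on stearoyl-CoA, so activation by these enzymes precedes the desaturation step that CAY10566 blocks.

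The results below turn on ACSL3, ACSL4 and ACSL5. On GRCh38, ACSL3 lies on the plus strand of chromosome 2 from 222860942 to 222944639, ACSL4 on the minus strand of chromosome X from 109624244 to 109733403, and ACSL5 on the plus strand of chromosome 10 from 112374116 to 112428379. The sequences upstream of their RefSeq starts (build GRCh38.p14, written 5′ to 3′ on the gene's strand, annotated exons left out) are shown because these are the members that passed in a comparison. Capitals mark CpG dinucleotides.
ACSL3 chr2:222860786-222860941: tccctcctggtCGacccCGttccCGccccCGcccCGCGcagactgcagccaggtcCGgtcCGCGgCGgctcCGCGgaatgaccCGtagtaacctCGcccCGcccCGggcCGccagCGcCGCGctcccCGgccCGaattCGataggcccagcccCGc
ACSL4 chrX:109733404-109733478: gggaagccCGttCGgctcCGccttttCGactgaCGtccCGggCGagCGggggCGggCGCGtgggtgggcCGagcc
ACSL5 chr10:112375018-112375234: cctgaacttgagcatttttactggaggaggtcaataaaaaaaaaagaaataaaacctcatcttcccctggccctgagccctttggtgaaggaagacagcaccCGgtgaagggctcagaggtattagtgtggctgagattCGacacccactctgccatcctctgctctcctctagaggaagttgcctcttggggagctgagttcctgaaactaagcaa
In the full windows of 250 bases before the start, ACSL3 had a GC content of 75.2% with 35 CpG and ACSL4 77.2% with 42 CpG. The ACSL5 window held 50.0% GC with 3 CpG, and that of its alternative RefSeq start 48.8% with 2. The median over 35116 RefSeq promoters was 58.0% GC and 11 CpG, so ACSL3 and ACSL4 lay above it and both ACSL5 starts below it. Both ACSL5 windows lie inside the annotated gene, after its GENCODE start at 112374116, and no window before that start is shown. Exact matches to 3 motifs were searched on both strands of the 19 RefSeq promoters of 9 members: TCACNCCAC (a sterol element, in 1.13% of all promoters), TGACGTCA (a cyclic AMP element, 1.85%) and the DR1 repeat of PPARs, which is 2 copies of AGGTCA separated by 1 base (0.0228%). The search returned 1 match, a sterol element at ACSL1.

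Of the 10 genes, 9 had a mean of at least 1 TPM (a transcript's share of the RNA pool, scaled for gene length to a common total) and were tested among 13789 genes. CD36 was low, from 0 to 0.15 TPM with a mean of 0.024, and is only noted as such. ACSL3 was the most abundant member at 103.7 ± 13.0 TPM (SD, n = 18), followed by FABP5 at 94.9 ± 4.23 TPM. Their values overlapped, and ACSL3 exceeded FABP5 in 11 of 18 samples. ACSL5 came next at 55.6 ± 4.54 TPM and did not overlap its neighbours in this order. ACSL4 (16.7 ± 1.76 TPM) and SLC27A4 (14.8 ± 0.987 TPM) overlapped each other but not the genes above and below them. SLC27A2 at 4.93 ± 0.551 TPM, SLC27A1 at 4.77 ± 0.580, ACSL1 at 3.55 ± 0.503 and SLC27A3 at 3.10 ± 0.825 formed a low group whose neighbours in order overlapped. ACSL3 and ACSL5 were thus far above ACSL1, and SLC27A4 was the highest of the 4 SLC27A members.

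**Figure D1:**
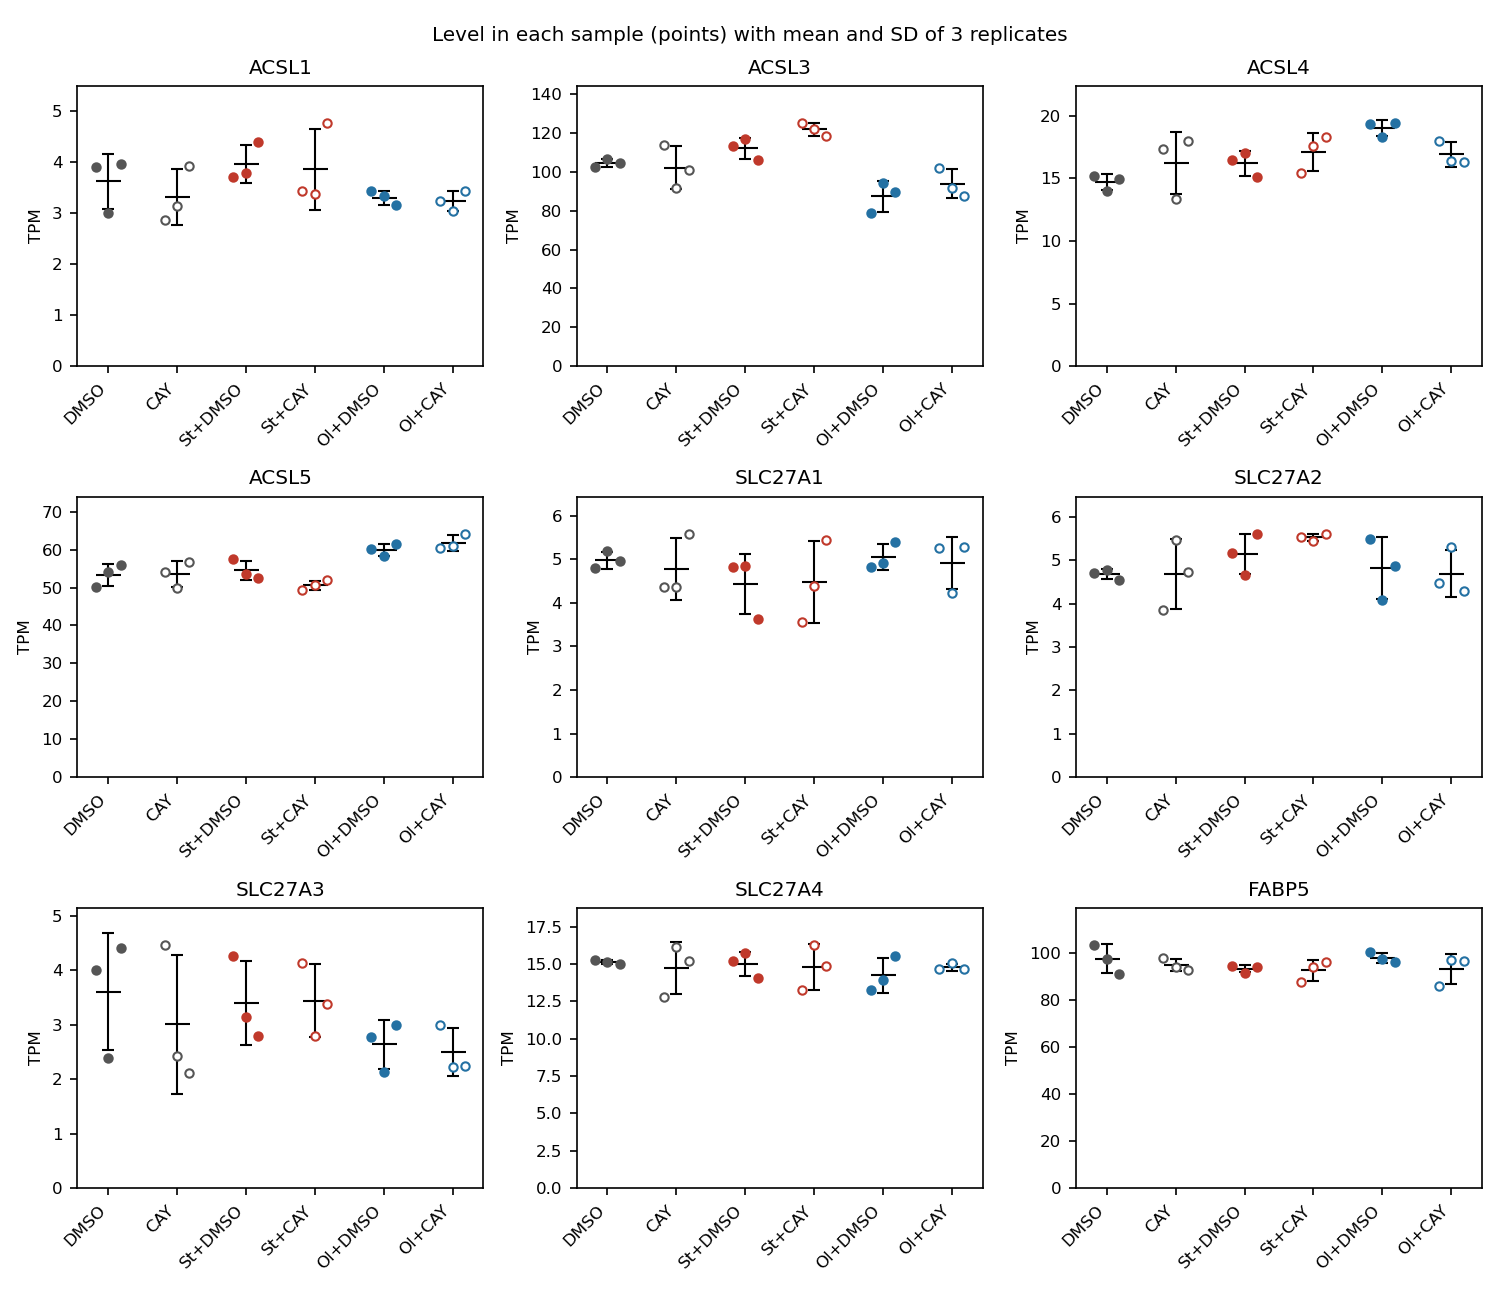
TPM of the 9 tested members (vertical axis, from 0) in the 6 conditions, with 1 point per sample and the mean ± SD of 3 replicates; open points mark CAY10566, St stearate and Ol oleate. ACSL3 is highest with stearate+CAY10566 (118.5 to 125.3 TPM) and ACSL5 is highest in both oleate conditions (58.3 to 64.2 TPM), while the pooled control, stearate and oleate values of each SLC27A gene and of FABP5 overlap.

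The wider families were mostly low. Of 14 relatives listed with the members (SLC27A5, SLC27A6, ACSL6, ACSBG1, ACSBG2 and 9 further fatty acid binding protein genes), 13 had a mean under 1 TPM, among them FABP4 (0 to 0.37 TPM) and ACSL6 (0 to 0.42 TPM). The exception was SLC27A5, a bile acid and very-long-chain acyl-CoA synthetase, at 67.8 ± 7.56 TPM (n = 18), above every SLC27A member in all samples.

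Some facts of the series touch these values. TPM carries no read depth, so no counting interval can be given, and expression here means a share of the RNA pool, in which fewer cells of a type and less RNA per cell cannot be told apart. Replicates of a condition correlated at 0.982 to 0.987 across genes. The labels do not say whether replicates were separate cultures, so p-values measure the spread between these samples only. All 5 epithelial markers were high. Their summed levels were 2554 to 2680 TPM in control, 2072 to 2220 with stearate and 2295 to 2569 with oleate samples. This sum was lower with stearate, without overlap with control, and reached lower with oleate, with a small overlap. Its part in the results was not tested. Of 5 serous ovarian markers, PAX8 (7.64 to 16.9 TPM) was present, MSLN had a mean of 1.02 TPM, and WT1, MUC16 and SOX17 had means under 1. The leukocyte, endothelial and adipocyte marker lists each summed to at most 1.00 TPM in every sample, with ADIPOQ at 0 throughout, and of 4 fibroblast markers only COL1A1 (3.10 to 7.17 TPM) exceeded a mean of 1.

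For each fatty acid comparison, 6 samples with it were set against 6 others, pooling DMSO and CAY10566, and control denotes the 6 samples without fatty acid. Genes passed at a false discovery rate (FDR) under 0.05 by limma on log2(TPM + 1), and fold changes are on that scale. The split of calls by direction depended on the scaling of the samples. With stearate against control, 69.3% of passing genes were higher on TPM as deposited and 43.1% after median-of-ratios size factors. The corresponding shares were 89.5% and 48.6% for oleate against control and 32.5% and 47.9% for stearate against oleate. The median log2 fold changes of all genes were 0.06, 0.09 and -0.03 as deposited and 0.005, -0.004 and 0.005 after rescaling.

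ACSL3 and ACSL5 differed between stearate and oleate in opposite directions. ACSL3 was 1.29-fold higher and ACSL5 0.865-fold as high with stearate as with oleate, and neither gene's stearate and oleate samples overlapped. Of the 9 members 2 passed, against 21.1% of all genes tested, so their share is close to the background. With a difference of over 25% upward or 20% downward as well, the size limit of the study's methods, 1 member passed (ACSL3), against 6.37% of all genes. A lack of overlap between the 6 and 6 values, seen for 2 members, occurred in 10.2% of all genes.

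ACSL3 measured 113.5, 116.7 and 106.2 TPM with stearate+DMSO and 125.3, 121.8 and 118.5 TPM with stearate+CAY10566. With oleate+DMSO it measured 78.7, 94.1 and 89.8 TPM, and with oleate+CAY10566 102.0, 91.7 and 87.7 TPM. Every stearate sample exceeded every oleate sample. The log2 fold change was 0.37 (SE 0.056, adjusted p = 0.000117, limma). Within the DMSO samples it was 0.36 (adjusted p = 0.00821), and within the CAY10566 samples 0.38 (adjusted p = 0.00569).

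ACSL5 measured 57.5, 53.4 and 52.6 TPM with stearate+DMSO and 49.5, 50.5 and 51.9 TPM with stearate+CAY10566. With oleate+DMSO it measured 60.1, 58.3 and 61.4 TPM, and with oleate+CAY10566 60.3, 61.0 and 64.2 TPM. All 6 stearate samples lay below all 6 oleate samples, and the log2 fold change was -0.21 (SE 0.040, adjusted p = 0.000998, limma). The difference passed within the CAY10566 samples (-0.28, adjusted p = 0.00383) and did not pass within the DMSO samples (-0.14, adjusted p = 0.136). Members passing within 1 inhibitor state numbered 1 of 9 in DMSO, against 8.98% of all genes, and 2 of 9 in CAY10566, against 7.66%. For both genes the pooled stearate against oleate call was present with each of the 18 samples left out in turn.

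The other members did not pass between stearate and oleate. ACSL1, the synthetase best known from adipocytes and heart muscle, ranged from 3.38 to 4.78 TPM (median 3.75) with stearate and from 3.04 to 3.44 (median 3.29) with oleate, a log2 fold change of 0.19 (adjusted p = 0.115). SLC27A3 ranged from 2.80 to 4.26 TPM (median 3.26) and from 2.13 to 3.00 (median 2.52) in the same groups, with a log2 fold change of 0.31 (adjusted p = 0.147). Both had 4 of 6 stearate samples above all oleate samples. ACSL4 had a log2 fold change of -0.11 (95% interval -0.25 to 0.04), SLC27A1 -0.14 (-0.32 to 0.04), SLC27A2 0.14 (-0.02 to 0.30), SLC27A4 0.03 (-0.09 to 0.16) and FABP5 -0.04 (-0.12 to 0.04).

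**Figure D2:**
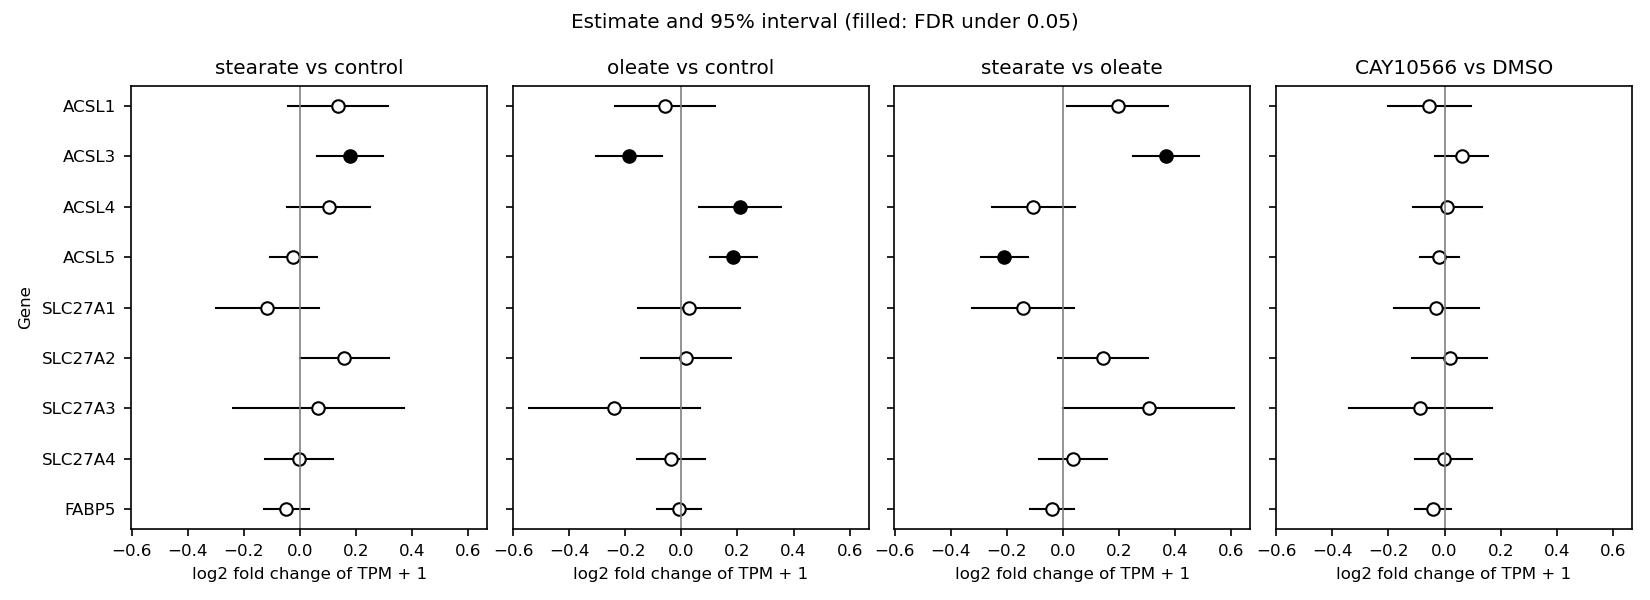
Log2 fold change of TPM + 1 (horizontal axis) with its 95% interval for the 9 tested members in 4 comparisons; filled points passed at an FDR under 0.05. ACSL3 passed in all 3 fatty acid comparisons, ACSL5 in 2 and ACSL4 in 1, and no member passed for CAY10566.

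A comparison with the control places these shifts. The stearate and the oleate comparison share the same 6 control samples, so they are not independent of each other. ACSL3 measured 102.2, 106.4 and 104.6 TPM with DMSO and 113.8, 91.8 and 101.0 TPM with CAY10566. It was higher with stearate, with 4 of 6 stearate samples above all controls, and lower with oleate, with 4 of 6 oleate samples below all controls. ACSL5 measured 50.2, 54.1 and 55.8 TPM with DMSO and 54.0, 49.8 and 56.8 TPM with CAY10566. These control values overlapped those of stearate and lay below all 6 oleate values.

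Against control, ACSL3 rose with stearate by 0.18 on the log2 scale (SE 0.056, adjusted p = 0.0317, limma), which is 1.13-fold. It was the only member of 9 to pass, against 19.4% of all genes, and 0 members also passed the size limit, against 5.35% of all genes. No member's 6 stearate and 6 control values were free of overlap, against 7.79% of all genes. Within inhibitor states ACSL3 did not pass: its log2 fold change was 0.10 in DMSO (adjusted p = 0.386) and 0.26 in CAY10566 (adjusted p = 0.0684), and 0 members passed in either, against 14.0% and 4.75% of all genes (at an unadjusted p under 0.05, 0 members beside 4227 of 13789 genes and 1 member beside 2618). After rescaling by size factors the value in DMSO was 0.011 (adjusted p = 0.948) and that in CAY10566 0.23 (adjusted p = 0.0861). Within CAY10566 it passed without CAY10566 replicate 1 (0.34, adjusted p = 0.0220) or oleate+DMSO replicate 1 (adjusted p = 0.0461). The pooled ACSL3 call was lost without DMSO replicate 1 (adjusted p = 0.0544), CAY10566 replicate 2 (0.0801), stearate+DMSO replicate 2 (0.0534) or stearate+CAY10566 replicate 1 (0.0650), 2 (0.0597) or 3 (0.0563). It was also lost after rescaling by size factors (0.12, adjusted p = 0.176) and without a filter on low TPM (adjusted p = 0.0755).

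The remaining members did not pass for stearate against control. SLC27A2, a very-long-chain acyl-CoA synthetase of peroxisomes and the endoplasmic reticulum, came nearest, at 4.67 to 5.62 TPM (median 5.49) with stearate and 3.86 to 5.46 (median 4.73) in control. Its log2 fold change was 0.16 (adjusted p = 0.149), and 3 of 6 stearate samples exceeded all controls. Log2 fold changes of the others ran from -0.12 for SLC27A1 to 0.14 for ACSL1.

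With oleate 3 of 9 members passed against control, 2 higher and 1 lower, near the background of 25.7% of all genes. No member also passed the size limit, against 6.90% of all genes. ACSL5 rose by 0.19 on the log2 scale (SE 0.040, adjusted p = 0.00419), ACSL4 rose by 0.21 (SE 0.070, adjusted p = 0.0359), and ACSL3 fell by 0.19 (SE 0.056, adjusted p = 0.0204, limma). Only ACSL5 had no overlap between the 6 and 6 values, against 4.06% of all genes. After rescaling by size factors the fall of ACSL3 was larger, at -0.29 (adjusted p = 0.00463), while ACSL4 (0.11, adjusted p = 0.214) and ACSL5 (0.08, adjusted p = 0.122) no longer passed. The directions of all 3 genes were the same under both scalings. Without CAY10566 replicate 1 the ACSL3 call was lost (adjusted p = 0.0510), and without a filter on low TPM the calls of ACSL3 (0.0518) and ACSL4 (0.0796) were lost.

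ACSL4 rose with oleate within DMSO and did not pass within CAY10566. It measured 15.2, 14.0 and 14.9 TPM with DMSO and 19.4, 18.3 and 19.4 TPM with oleate+DMSO, and these groups did not overlap. The share of all genes without overlap between such small groups was not counted, so nothing is concluded from this. With CAY10566 it measured 17.3, 13.4 and 18.0 TPM and with oleate+CAY10566 18.0, 16.4 and 16.3 TPM, which overlapped. With stearate+DMSO it measured 16.4, 17.0 and 15.1 TPM and with stearate+CAY10566 15.4, 17.6 and 18.3 TPM. The oleate effect was 0.35 within DMSO (adjusted p = 0.0137) and 0.07 within CAY10566 (adjusted p = 0.776). After rescaling by size factors the value within DMSO was 0.23 and no longer passed (adjusted p = 0.0557). Their difference, tested as an interaction, was -0.29 (95% interval -0.57 to -0.01, unadjusted p = 0.0450 from limma) and did not pass (adjusted p = 0.481), so a difference between the inhibitor states is not shown. The pooled ACSL4 call was lost with any of 8 samples left out: DMSO replicate 1 (adjusted p = 0.0626), 2 (0.0873) or 3 (0.0684), CAY10566 replicate 2 (0.0905), oleate+DMSO replicate 1 (0.0745), 2 (0.0675) or 3 (0.0824) and oleate+CAY10566 replicate 1 (0.0587).

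Within DMSO, with the spread of all 18 samples, the same 3 genes passed for oleate against control, beside 24.2% of all genes. Of these, ACSL4 also passed the size limit, against 14.1% of all genes. ACSL3 changed by -0.26 (adjusted p = 0.0239) and ACSL5 by 0.17 (adjusted p = 0.0372). After rescaling by size factors ACSL3 passed at -0.39 (adjusted p = 0.00396), while ACSL5 was at 0.03 (adjusted p = 0.676) and no longer passed. Without the trend in the variance model ACSL5 was lost as well (adjusted p = 0.0526), and without a filter on low TPM ACSL3 (0.0619) and ACSL5 (0.0645) were lost. Without DMSO replicate 2 all 3 calls were lost (adjusted p = 0.0802 for ACSL3, 0.0602 for ACSL4 and 0.0759 for ACSL5). ACSL3 was also lost without DMSO replicate 3 (0.0598) or oleate+DMSO replicate 1 (0.101), and ACSL5 without DMSO replicate 1 (0.146) or oleate+DMSO replicate 1 (0.0733), 2 (0.0587) or 3 (0.117). Within the CAY10566 samples 0 members passed, against 0.109% of all genes (at an unadjusted p under 0.05, 1 member, ACSL5, beside 1852 of 13789 genes). There ACSL5 had a log2 fold change of 0.21 (adjusted p = 0.153) and ACSL3 of -0.12 (adjusted p = 0.487). ACSL5 passed there without CAY10566 replicate 3 (0.25, adjusted p = 0.0313), and after rescaling by size factors its value was 0.13 (adjusted p = 0.371). That sample's size factor was 1.02, beside 0.942 to 0.969 in the other 5 controls, and its part in the result was not tested.

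The transporters and the binding protein did not pass with oleate. SLC27A3 was at 2.12 to 4.47 TPM (median 3.22) in control and 2.13 to 3.00 (median 2.52) with oleate, with a log2 fold change of -0.24 (95% interval -0.54 to 0.07, adjusted p = 0.239). SLC27A1, SLC27A2 and SLC27A4 had log2 fold changes of 0.03, 0.02 and -0.04, and ACSL1 of -0.06. FABP5 had -0.01 (-0.09 to 0.07). The intervals of SLC27A4 and FABP5 were the narrowest among these, within 0.16 of 0 on either side in all 3 fatty acid comparisons.

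The composition of the ACSL pool does not depend on how samples are scaled. The ratio of ACSL3 to ACSL5 TPM was 1.78 to 2.11 in control (mean 1.93), 1.98 to 2.53 with stearate (mean 2.24) and 1.31 to 1.69 with oleate (mean 1.49). The 6 oleate ratios lay below all 12 others, and the stearate ratios overlapped those of control. ACSL3 made up 58.8% ± 1.56 of the summed ACSL TPM in control, 61.5% ± 2.05 with stearate and 52.4% ± 2.43 with oleate (SD, n = 6 each). ACSL5 made up 30.4% ± 1.22, 27.7% ± 1.83 and 35.3% ± 1.86, and ACSL4 8.78% ± 0.746, 8.74% ± 0.525 and 10.4% ± 1.01. The summed level itself was 175.8 ± 10.2 TPM in control, 190.2 ± 5.92 with stearate and 172.8 ± 7.05 with oleate. These ratios and shares are descriptive and carry no test. The ratio pairs members already called in opposite directions in these same samples, so it is not separate evidence. The shares of a sample have a common total, so a lower ACSL3 level alone raises the shares of ACSL5 and ACSL4. They do not show whether ACSL5 or ACSL4 rose. By condition, the ratio was highest with stearate+CAY10566 (2.28 to 2.53), whose 3 values exceeded all 15 others.

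**Figure D3:**
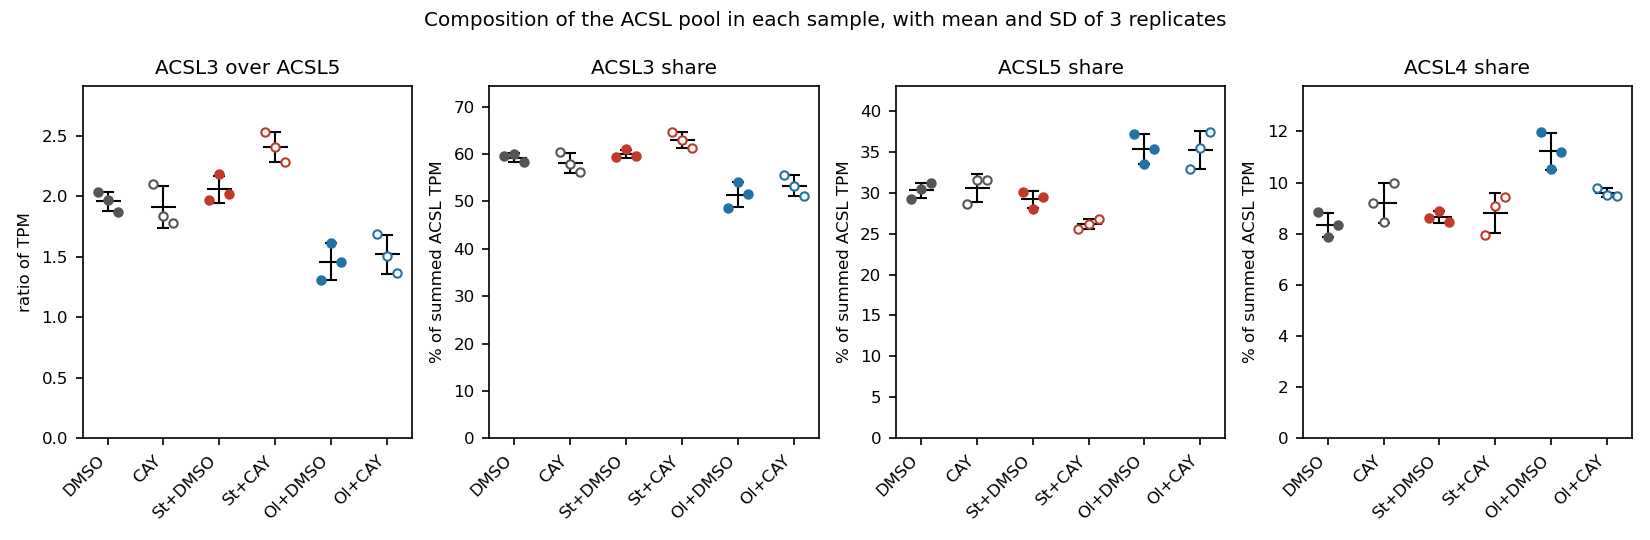
Ratio of ACSL3 to ACSL5 TPM and the shares of ACSL3, ACSL5 and ACSL4 in the summed TPM of ACSL1, ACSL3, ACSL4, ACSL5 and ACSL6 (vertical axes, from 0) in the 6 conditions, with 1 point per sample and the mean ± SD of 3 replicates; open points mark CAY10566. The 6 oleate ratios (1.31 to 1.69) lie below the 12 others (1.78 to 2.53).

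No member passed for CAY10566. Over 9 samples with and 9 without the inhibitor, adjusted for the fatty acid group, 0 of 9 members passed, as did 0 of all 13789 genes (0%, limma). At an unadjusted p under 0.05 there were 0 members and 748 genes. The intervals of the log2 fold change were -0.03 to 0.16 for ACSL3, -0.11 to 0.13 for ACSL4, -0.09 to 0.05 for ACSL5 and -0.10 to 0.02 for FABP5. The widest was that of SLC27A3, from -0.34 to 0.17. Within control, stearate and oleate, 0 members passed, against 0%, 0.0145% and 0% of all genes, and at an unadjusted p under 0.05 there were also 0 members in each, beside 1399, 761 and 651 of 13789 genes. The interactions of CAY10566 with stearate and with oleate were passed by 0 members, against 0.00725% and 0% of all genes (at an unadjusted p under 0.05, 0 members beside 1290 of 13789 genes and 1 member, ACSL4, beside 1415). For ACSL3, which was highest with stearate+CAY10566, the stearate interaction was 0.16 (95% interval -0.07 to 0.38, adjusted p = 0.633).

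SCD, the gene of the inhibited enzyme, served as a reference for fatty acid responses. It ranged from 166.9 to 207.2 TPM in control (median 184.3), 131.2 to 206.4 with stearate (median 179.2) and 99.9 to 128.4 with oleate (median 110.3). It fell with oleate by 0.72 on the log2 scale (adjusted p = 0.00021, limma), and its values with oleate did not overlap those of the other groups. With stearate its log2 fold change against control was -0.10 (adjusted p = 0.446). With CAY10566 it was 0.22 (95% interval 0.11 to 0.33, unadjusted p = 0.000698 from limma, adjusted p = 0.642). Within DMSO the stearate value was -0.25 (adjusted p = 0.0570) and within CAY10566 0.04 (adjusted p = 0.829), and their difference did not pass (0.29, 95% interval 0.04 to 0.54, adjusted p = 0.512). CAY10566 against DMSO within stearate gave 0.37 (95% interval 0.19 to 0.54, unadjusted p = 0.000384 from limma, adjusted p = 0.393).

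Reads of some members could be shared with other genes. FABP5 has 15 annotated pseudogenes in the table, of which FABP5P7 was listed at 53.6 ± 9.65 TPM (32.4 to 68.3, n = 18), so the split of reads between the gene and its copy leaves the FABP5 level uncertain. The sum of both was 153.3 ± 6.94 TPM in control, 145.5 ± 11.4 with stearate and 146.7 ± 5.49 with oleate (n = 6 each), with overlapping ranges. ACSL5 overlaps the antisense gene ZDHHC6 (30.5 TPM), SLC27A1 the antisense PGLS-DT (4.00 TPM) and SLC27A3 the same-strand INTS3 (18.7 TPM). The library kit marks strand, but whether the counting used it is not given in the sources used here. ZDHHC6 had log2 fold changes of 0.17 with stearate and 0.05 with oleate and passed in neither (adjusted p = 0.129 and 0.674).

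Beyond the members, SLC27A5 was lower with stearate. It ranged from 70.8 to 77.5 TPM in control (median 73.3), 53.6 to 68.2 with stearate (median 59.3) and 62.0 to 76.3 with oleate (median 70.4). All 6 stearate samples lay below all 6 controls. SLC27A5 fell with stearate by 0.30 on the log2 scale (SE 0.060, adjusted p = 0.00218), and its log2 fold change with oleate was -0.07 (adjusted p = 0.409). Stearate against oleate gave -0.22 (adjusted p = 0.0118, limma). After rescaling by size factors the values against control were -0.355 with stearate (adjusted p = 0.00044) and -0.17 with oleate (adjusted p = 0.0527). The rescaled stearate against oleate value was -0.18 (adjusted p = 0.0364, limma). SLC27A5 overlaps the antisense gene ZNF446 (10.96 TPM), so its reads could be shared as well. The 4 SLC27A members passed in none of these comparisons.

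Membrane partners of fatty acid uptake included a gene with a larger difference than any member. Of 9 listed 6 were tested, and for stearate against oleate 1 passed higher and 2 lower, against 6.85% higher and 14.3% lower among all genes, with a median log2 fold change of -0.05 beside -0.03. CAV1, the main coat protein of caveolae, ranged from 99.4 to 134.3 TPM in control (median 106.0), 76.1 to 94.0 with stearate (median 91.5) and 124.5 to 141.8 with oleate (median 138.2). Stearate samples lay below all others, and the log2 fold change of stearate against oleate was -0.62 (adjusted p = 1.08e-06). CAV2 passed in the same direction (-0.26, adjusted p = 0.000485). VLDLR, a lipoprotein receptor, was higher with stearate than with oleate by 0.33 (adjusted p = 0.000618). Against control, 1 partner passed higher and 1 lower with stearate, with a median of 0.02 beside 0.06 for all genes, and 3 higher and 0 lower with oleate, with a median of 0.10 beside 0.09. Among all genes 13.5% passed higher and 5.97% lower with stearate, and with oleate 23.0% passed higher and 372 of 13789 genes lower. After rescaling by size factors the oleate counts were 1 higher and 1 lower.

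Acyl-CoA made by the members is bound or hydrolysed by further proteins. Of 18 acyl-CoA binding proteins and thioesterases 14 were tested, with 1 higher and 1 lower for stearate and 2 higher and 3 lower for oleate against control (1 and 2, and 1 and 4, after rescaling). The background in both directions together was 19.4% of all genes with stearate, and 25.7% with oleate, beside 2 of 14 and 5 of 14 here. Their median log2 fold changes were 0.03 and 0.05 beside 0.06 and 0.09 for all genes. DBI, the main acyl-CoA binding protein, ranged from 363.3 to 402.8 TPM in control, 368.8 to 425.9 with stearate and 314.3 to 345.5 with oleate. It fell with oleate by 0.21 on the log2 scale (adjusted p = 0.00138). As for ACSL3, every stearate sample of DBI exceeded every oleate sample (0.26, adjusted p = 2.89e-05, limma).

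Of 18 acceptor enzymes of glycerolipid and sterol ester synthesis 17 were tested. Against control, with stearate 2 passed higher and 0 lower, and with oleate 5 higher and 0 lower, with medians of 0.05 and 0.07 beside 0.06 and 0.09 for all genes. Of all genes 13.5% passed higher with stearate and 23.0% with oleate, beside 2 of 17 and 5 of 17 here. The balance of the list turned with the scaling: after size factors the counts were 1 higher and 4 lower with stearate and 1 higher and 2 lower with oleate. LPCAT1, which remodels phosphatidylcholine, was lower with stearate than with oleate (log2 fold change -0.48, adjusted p = 0.00131). AGPAT3, a phosphatidate-forming acyltransferase, rose with oleate by 0.31 (adjusted p = 0.00246), and both calls were present under size factors as well.

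Oxidation and synthesis genes give the setting of these enzymes. Of 18 PPAR and oxidation genes 15 were tested, and against control there were 6 higher and 2 lower for stearate (5 and 2 after size factors) and 5 higher and 0 lower for oleate (1 and 0), and medians of 0.12 and 0.10 beside 0.06 and 0.09 for all genes. Among all genes 19.4% passed with stearate and 25.7% with oleate, beside 8 of 15 and 5 of 15 here. ACADM, the medium-chain acyl-CoA dehydrogenase, rose with stearate by 0.28 (adjusted p = 0.000337). PPARD, a fatty acid receptor, was lower with stearate than with oleate (-0.31, adjusted p = 0.000202). Of 17 SREBP and lipogenesis genes, all tested, 0 passed higher and 3 lower with stearate (0 and 5 after size factors) and 2 higher and 4 lower with oleate (1 and 7), with medians of -0.05 and -0.06. The same shares of all genes stand beside 3 of 17 with stearate and 6 of 17 with oleate. INSIG1, a sterol-regulated retention protein, fell with oleate by 0.59 (adjusted p = 1.62e-05). FASN, the fatty acid synthase, fell with stearate by 0.49 (adjusted p = 0.000409) and with oleate by 0.61 (adjusted p = 0.000361). Of 11 other acyl-CoA synthetases 5 were tested, with 0 passing with stearate (0 higher and 2 lower after size factors) and 1 lower with oleate. That gene was ACSS2, which activates acetate (-0.27, adjusted p = 0.0129). For CAY10566, 0 genes passed in any of these lists.

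**Figure D4:**
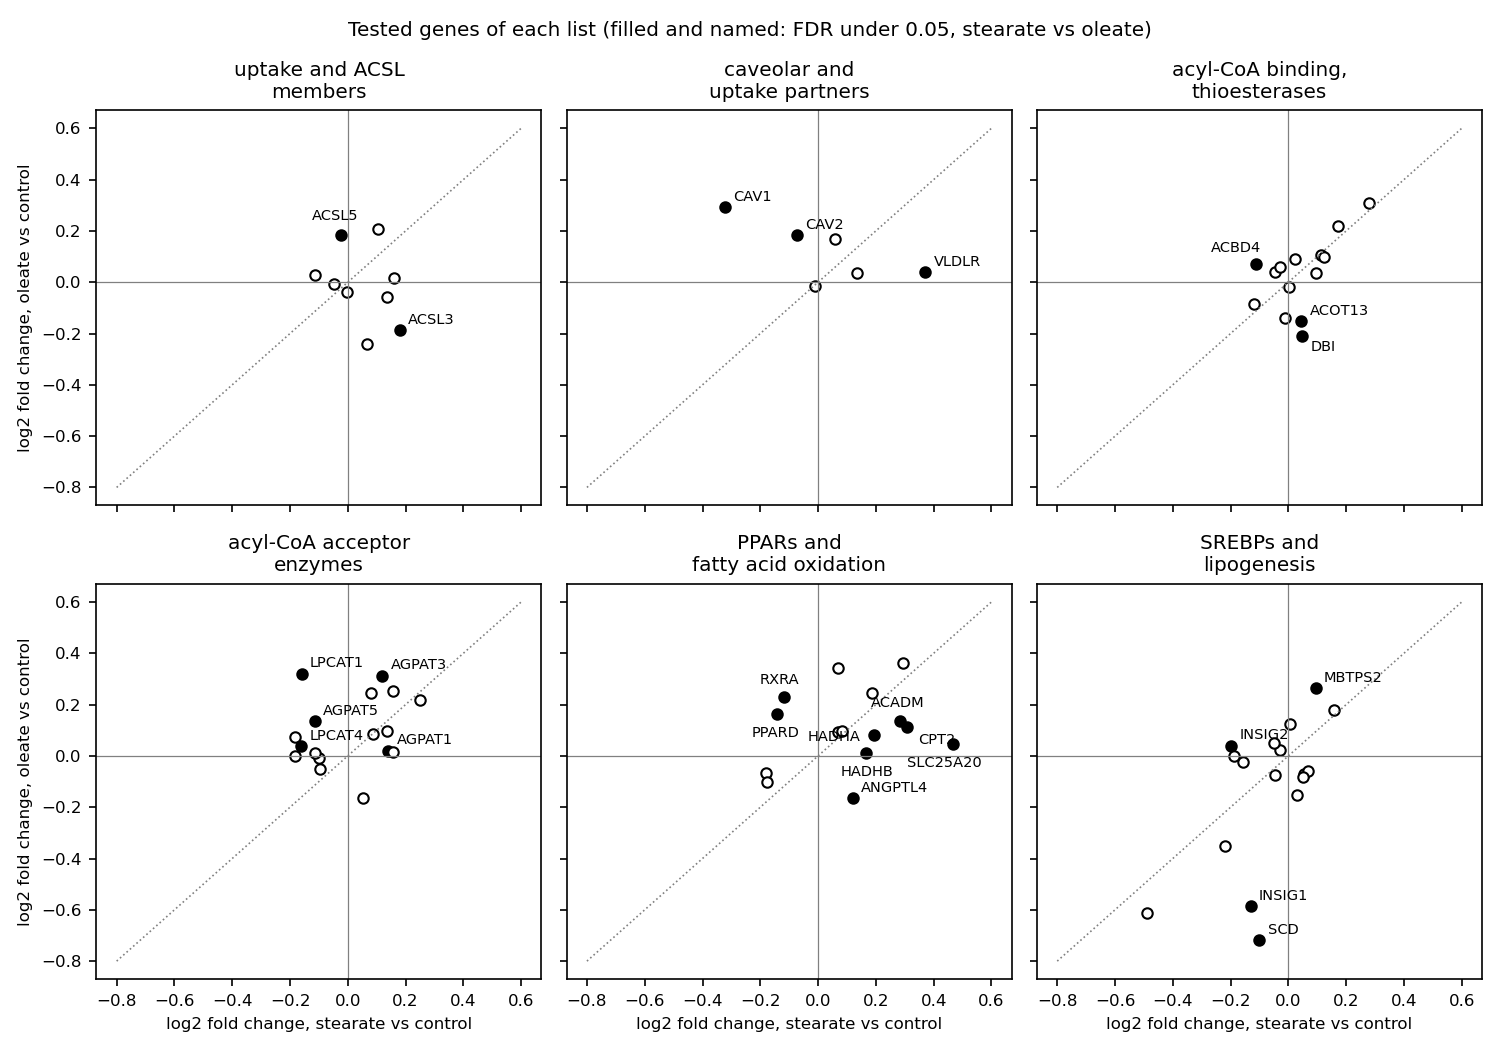
Log2 fold change against control with stearate (horizontal axis) and with oleate (vertical axis) for the tested genes of 6 lists; the dotted line marks equal values, and filled, named points passed for stearate against oleate. Both axes share the same control samples. ACSL3 (0.18 and -0.19) lies below the line and ACSL5 (-0.02 and 0.19) above it, with CAV1 (-0.32 and 0.29) farther from the line.

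The genes whose log2(TPM + 1) followed each passing member most closely over the 18 samples were taken by Pearson's r, as a description. For ACSL3 these were SUOX (0.868), CCDC28A (0.860) and IDH1 (0.846). For ACSL4 they were TRAK1 (0.889), TRIM44 (0.886) and ANAPC1 (0.880), and for ACSL5 SH3BP4 (0.908), RAB31 (0.906) and GRAMD4 (0.901). The points share the fatty acid groups and each library's scaling. Over the 6 condition means only RAB31, with ACSL5 (0.991), was again among the 3 closest genes. ACSL3 and ACSL5 themselves had an r of -0.663 over the 18 samples.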

How the data were processed

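RNA of 18 OVCAR5 samples was sequenced by the authors, trimmed with Trim Galore, aligned with STAR 2.7.1a to GRCh38 and quantified with RSEM against Ensembl release 99. The deposited values are the authors' TPM, given to 2 decimals, summing to 999999.1 to 1000000.5 in each sample; depth is unknown. 1 line naming no gene was left out, and 56321 identifiers (93.1%) had a symbol. Groups and replicate numbers came from the labels.

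All 13789 genes averaging 1 TPM or more were tested with limma 3.58.1 in R 4.3.3 (lmFit, eBayes with trend) on log2(TPM + 1), with Benjamini-Hochberg adjustment over all of them and an FDR under 0.05; the study's size limit (over 25% higher or 20% lower) is given separately. Models had 3 fatty acid groups of 6, fatty acid group plus CAY10566 (9 against 9), or 6 conditions for contrasts within inhibitor states and interactions. The procedure was tested on simulated data. Plots used matplotlib 3.10.9 (Python 3.11.15). Gene positions are from GENCODE release 44, promoters from RefSeq.

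The alternatives were a pseudocount of 0.1, no filter, a minimum mean of 5 TPM, no trend, median-of-ratios size factors, a replicate block, each sample left out, DMSO or CAY10566 samples only, and CAY10566 as a covariate. Named genes are the members, SCD and the 3 genes most like each passing member. From each list up to 4 genes were named, by smallest adjusted p among those passing in a fatty acid comparison. FABP5P7, ZDHHC6, PGLS-DT, INTS3 and ZNF446 were added after values were seen. The members and lists were chosen with earlier results of these data known.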

Additional observations from a re-analysis of the deposited data

Results flagged for a closer look

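Of 27 groups of 6 samples tested for a far value (9 members in 3 fatty acid groups), 2 held one by Dixon's criterion, and chance flags about 1 in 20 groups. SLC27A4 was at 12.77 TPM in CAY10566 replicate 1, below the other 5 control samples at 15.02 to 16.15 TPM. FABP5 was at 86.02 TPM in oleate+CAY10566 replicate 1, below the other 5 oleate samples at 96.28 to 100.4 TPM.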

How the results depend on the processing

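No member's called change reversed its direction under any alternative. The number of members passing for stearate against control went from 1 to 0 without a filter, with size factors, and with DMSO or CAY10566 samples only, and ranged from 0 to 1 with each sample left out. For oleate against control it went from 3 to 1 without a filter (ACSL5) and with size factors (ACSL3) and to 0 with CAY10566 samples only; for stearate against oleate it went from 2 to 1 with DMSO samples only. Within DMSO samples, oleate against control went from 3 to 1 without a filter (ACSL4) and with size factors (ACSL3) and to 2 with no trend (ACSL5 lost), and ranged from 0 to 3 with each sample left out; within CAY10566 samples, the range was 0 to 1 for stearate (1 without CAY10566 replicate 1 or oleate+DMSO replicate 1) and 0 to 1 for oleate (1 without CAY10566 replicate 3). Samples of 1 inhibitor state only are fewer, and without a filter 30753 genes enter the adjustment; the cause of the change with size factors was not tested. Over 27 alternatives the adjusted p for stearate against oleate ranged from 5.38e-05 to 0.0401 for ACSL3 and from 0.000293 to 0.131 for ACSL5. Against control it ranged from 0.018 to 0.301 for ACSL3 with stearate, and with oleate from 0.00463 to 0.591 for ACSL3, from 0.00634 to 0.838 for ACSL4 and from 0.000897 to 0.393 for ACSL5.

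Same-numbered samples shared only a number: over 45 pairs their deviations from condition means correlated at -0.18 to 0.10 (median 0.01), 2 pairs exceeded 0.1, and 5 of 18 samples correlated best with their own number. With the replicate block the number of members passing was 1 for stearate against control (ACSL3, adjusted p = 0.0407), 3 for oleate against control and 2 for stearate against oleate. The block changed no member's call in these 3 comparisons. TPM keeps no depth, so counting error is not part of any value here.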
